A study of Mus musculus with 6 samples.

Results

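The Slc25 genes encode the mitochondrial carriers, the family of proteins that move metabolites, nucleotides, cofactors and ions across the inner mitochondrial membrane. The genes described here were the protein-coding genes whose GENCODE M21 symbol starts with Slc25a, together with the uncoupling proteins Ucp1, Ucp2 and Ucp3, which belong to the same family under older names. This gave 50 genes (47 Slc25a genes and 3 Ucp genes) of the 54532 listed. Their mRNA was measured by RNA-Seq of whole epididymal fat, the visceral depot beside the epididymis, from male C57BL/6J mice fed a normal diet (ND, 4.5% fat) or a high-fat diet (HFD, 60% fat). The diets started at 4 weeks of age and lasted 16 weeks, so that the HFD-fed mice were 20 weeks old, and the labels name no transgene and no other treatment. Each diet had 3 libraries, named ND1 to ND3 and HFD1 to HFD3. The labels do not say whether a library is 1 mouse, so the p-values measure only the spread between these libraries.

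A mitochondrial carrier is built of repeated pairs of membrane-spanning helices around a central substrate site, and most members exchange a substrate of the matrix for one of the cytosol. Carriers are made in the cytosol and reach the inner membrane through the TOM complex, the small TIM chaperones and the TIM22 complex. In white fat cells the family carries citrate out of the matrix for fatty acid synthesis, takes acylcarnitines in for oxidation, and brings in the phosphate and ADP from which ATP is made.

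The count totals lay between 16996896 and 18859320 per library, and 3 counts, used as the floor, corresponded to 0.150 to 0.181 CPM. CPM is the count per 1000000 counts of tested genes in the library, after scaling by edgeR's TMM method. The fat cell label was checked with 15 adipocyte markers, all of them tested, whose summed level was 48707 to 64523 CPM on ND and 25125 to 48518 CPM on HFD. Of these 15 markers, 1 was higher and 3 were lower on HFD, with a median log2 fold change of -0.52. The other 11 were not called. Cfd made up a large part of the difference between the sums, with 13496, 15636 and 11768 CPM on ND against 1160, 2504 and 162 CPM on HFD. The summed level of 15 macrophage markers was 2077 to 2179 CPM on ND and 4367 to 9587 CPM on HFD, and 10 of the 15 were higher, with a median of 1.32. Of 10 skeletal muscle markers, Ckm and Myh4 were at 0 in all 6 libraries. The list summed to 24.7, 68.4 and 33.3 CPM on ND against 5.90, 8.67 and 7.49 CPM on HFD. Acta1 made up most of the ND sums, with 22.1, 65.4 and 30.3 CPM on ND against 3.17, 5.72 and 3.80 CPM on HFD. It was the only called member of 4 tested (log2 fold change -3.21). The other 3 were not called, and 1 of them, Tnni2, had a positive fold change (1.63 on the log2 scale). The part of muscle RNA in the carrier results was not tested. None of the tested endothelial (6), mesothelial (6), erythroid (5), epithelial (3) or male germ cell (3) markers passed edgeR's test, although 2 endothelial and 1 epithelial marker had an unadjusted p under 0.05. DESeq2 called 1 endothelial marker.

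The carriers were tested together with all other genes by edgeR's quasi-likelihood method, and a gene was called at an adjusted p under 0.05. Of the 50 carrier genes, 43 had enough counts to be tested and 7 did not. Among the 43, 6 were higher on HFD (Ucp2, Slc25a37, Slc25a24, Slc25a43, Slc25a13 and Slc25a30) and 7 were lower (Slc25a1, Slc25a22, Slc25a35, Slc25a16, Slc25a17, Slc25a44 and Slc25a29). The called share was 30.2% of the carriers, against 15.9% of the 15751 genes tested. It was 14.0% in the higher direction against 9.85% of all genes, and 16.3% in the lower direction against 6.04%. The 3 libraries of one diet did not overlap those of the other in 24 of the 43 carriers (8 higher, 16 lower on HFD), or 55.8%, against 40.9% of all genes tested. The fold change was negative for 32 carriers and positive for 11, and its median on the log2 scale was -0.23, against 0.0074 for all genes tested. These are RNA levels of whole tissue, in which fewer cells of a type and less RNA per cell cannot be told apart. The macrophage marker sums above were higher on HFD and the adipocyte marker sums were lower, both without overlap between diets. Of the 15 adipocyte markers, 12 had a negative fold change. EdgeR called 3 of them lower and 1 higher and left 11 uncalled, while DESeq2 called 5 lower and 1 higher. The part of either cell type in the carrier results was not tested.

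The calls depended on single libraries. The numbers of carriers called higher and lower were 0 and 0 without ND1, 0 and 1 without ND2, 3 and 3 without ND3, 1 and 0 without HFD1, 7 and 10 without HFD2, and 3 and 5 without HFD3, against 6 and 7 with all libraries. The calls over all genes changed as well. They numbered 492 of 16207 tested without ND1, 591 of 16270 without ND2 and 1003 of 16072 without ND3. Without HFD1 they were 474 of 16194, without HFD2 3940 of 16298 and without HFD3 2095 of 16238, against 2504 of 15751. All 13 called carriers kept their direction and an unadjusted p under 0.05 in each of these 6 fits, but none was called in all 6. DESeq2 called all 13 as well.

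**Figure D1:**
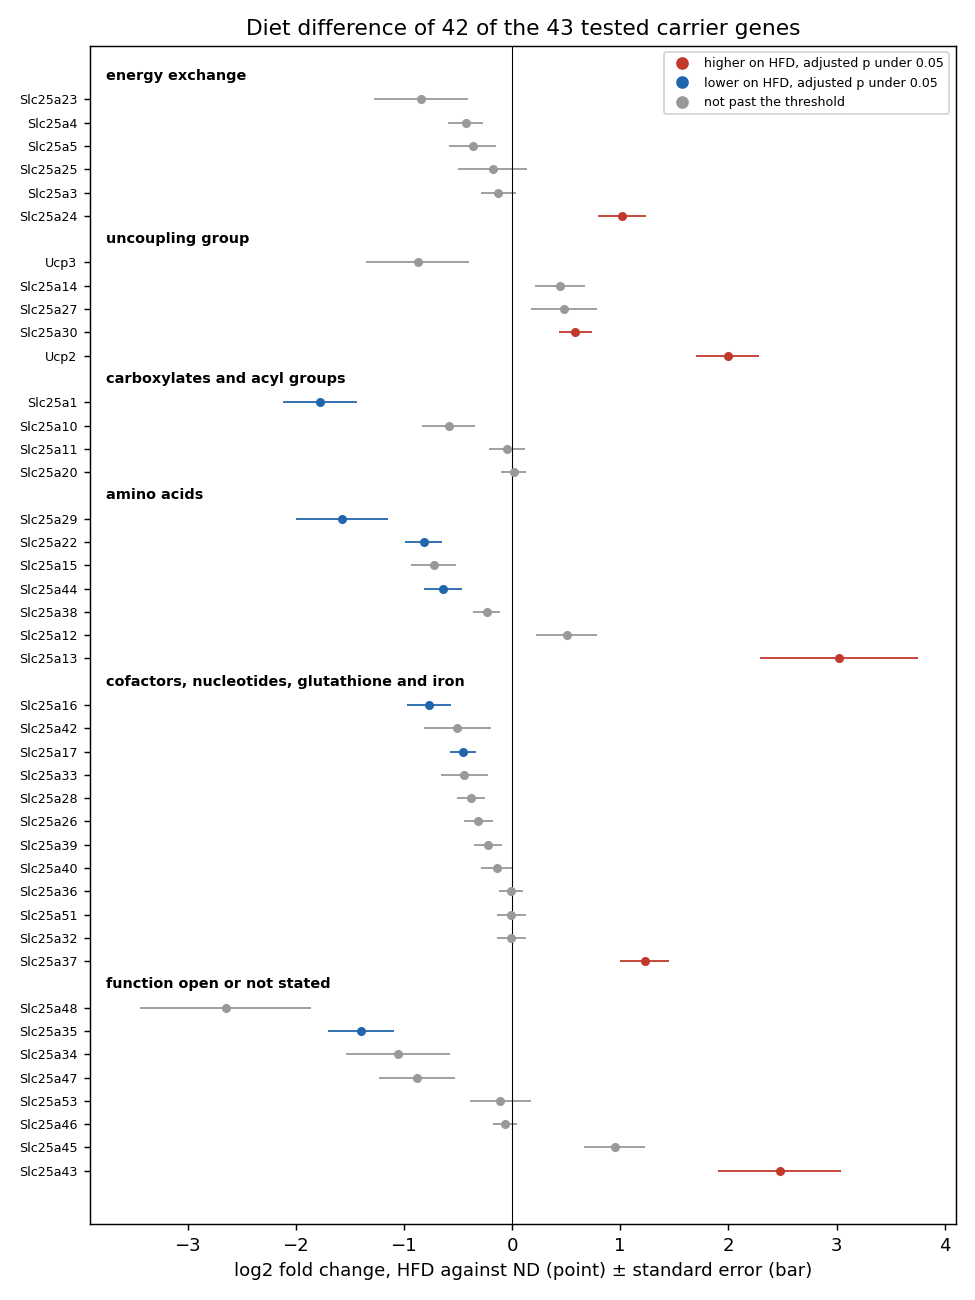
Log2 fold change (HFD against ND) of 42 of the 43 tested carriers, grouped by role, with bars of 1 standard error of edgeR's estimate; colours mark carriers called higher, called lower and not called. Slc25a13, Slc25a43 and Ucp2 lie farthest to the right, at 3.02, 2.47 and 1.99, and Slc25a48, which was not called, lies farthest to the left at -2.65.

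Levels can be compared between genes only per length, and the deposited FPKM values were used for this. On ND the highest carrier mRNA was Slc25a1 (309 ± 157 FPKM, SD, n = 3), followed by Slc25a5 (237 ± 31.6), Slc25a4 (149 ± 20.4), Slc25a10 (99.6 ± 35.0) and Slc25a3 (77.1 ± 7.54). Within this order Slc25a1 and Slc25a5 were closer than their spread, as were Slc25a10 and Slc25a3. On HFD the order was Slc25a5 (182 ± 46.3 FPKM), Ucp2 (113 ± 44.5), Slc25a4 (109 ± 12.2), Slc25a1 (89.3 ± 11.6) and Slc25a3 (69.9 ± 7.58). The means of Slc25a4, Slc25a1 and Slc25a3 all lay within 1 SD of that of Ucp2. By mean FPKM, Ucp2 moved from rank 10 on ND (28.7 ± 2.08 FPKM) to rank 2 on HFD. In HFD2, however, Ucp2 (74.4 FPKM) was below Slc25a4 (123) and Slc25a1 (102).

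In each library the FPKM of all carriers was summed. The sum was 1276, 1661 and 1113 in ND1 to ND3 and 969, 981 and 1108 in HFD1 to HFD3, so the lowest ND library lay just above the highest HFD library. Slc25a1 made up 18.7%, 29.4% and 17.9% of that sum on ND and 8.25%, 10.4% and 7.73% on HFD. Ucp2 made up 2.14%, 1.66% and 2.79% on ND and 10.6%, 7.58% and 14.6% on HFD. Neither gene's shares overlapped between diets. The ranks depend on the length used: the length behind the FPKM was 5521 bases for Slc25a3 and 6952 for Ucp2, but the principal GENCODE transcripts have 1612 and 3988 bases. With CPM per kilobase of the principal transcript, Slc25a3 had rank 3 on ND and rank 2 on HFD, Ucp2 ranks 8 and 3, and Slc25a1 ranks 1 and 5.

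**Figure D2:**
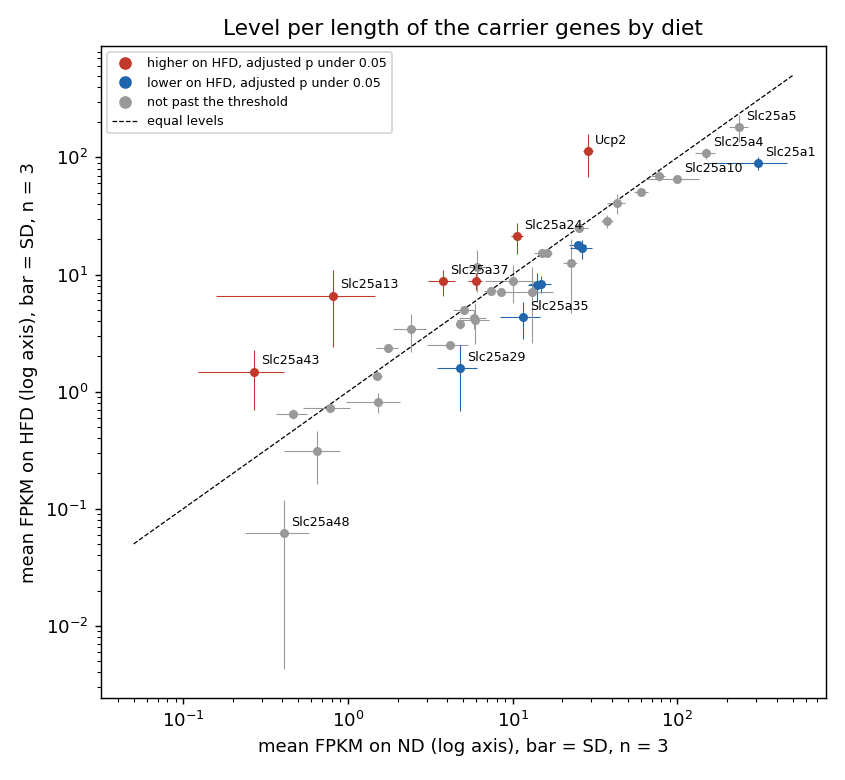
Mean FPKM on HFD (vertical) against ND (horizontal) for 42 of the 43 tested carriers, both axes on a log scale, with bars of 1 SD over 3 libraries and a diagonal of equal levels. Slc25a1 lies farthest right at 309 FPKM on ND and well below the diagonal, and Ucp2 lies above it at 28.7 and 113 FPKM.

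The promoters of 4 called carriers are shown because these genes moved in opposite directions while some of their promoter letters are shared. RefSeq start sites were used (build GRCm38.p6), and each sequence holds the 120 bases before the start, 5′ to 3′ on the gene's strand. Capitals mark matches, on either strand, to the Sp1 box (GGGCGG), the CCAAT box (CCAAT) or the SREBP site (TCANNCCAC).
Ucp2, higher on HFD, chr7:100493238-100493357, plus strand: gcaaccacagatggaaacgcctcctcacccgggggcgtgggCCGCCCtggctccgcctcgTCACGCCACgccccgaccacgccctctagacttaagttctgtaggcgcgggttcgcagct
Slc25a30, higher on HFD, chr14:75787038-75787157, minus strand: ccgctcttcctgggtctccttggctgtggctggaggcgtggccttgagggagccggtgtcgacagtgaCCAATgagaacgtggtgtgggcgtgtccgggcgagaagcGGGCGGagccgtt
Slc25a1, lower on HFD, chr16:17928220-17928339, minus strand: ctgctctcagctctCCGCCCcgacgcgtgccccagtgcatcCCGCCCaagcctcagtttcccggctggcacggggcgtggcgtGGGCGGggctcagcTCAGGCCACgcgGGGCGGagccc
Slc25a29, lower on HFD, chr12:108835877-108835996, minus strand: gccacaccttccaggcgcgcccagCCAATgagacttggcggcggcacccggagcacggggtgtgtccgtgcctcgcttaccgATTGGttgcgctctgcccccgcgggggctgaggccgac

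Of the carriers, 39 of the 48 not on chromosome 18 had a promoter in the RefSeq table, among them 5 of those called higher and 5 of those called lower. Slc25a37, Slc25a35 and Slc25a44 had none. Over 250 bases before to 50 after the start, the Sp1 box stood in 4 of the 5 higher, 5 of the 5 lower and 21 of the 24 uncalled carriers, and in 1 of the 5 untested ones. It stood in 38.2% of the 27025 genes with a promoter in the table, where a gene counts if any of its promoters has a match. Those genes were not limited to the genes tested here. The CCAAT box stood in 2 of 5 higher, 4 of 5 lower, 12 of 24 uncalled and 1 of 5 untested carriers, against 41.06%. The SREBP letters stood in Ucp2, Slc25a1 and the untested Slc25a18, against 4.777% of genes, and in none of the 24 uncalled carriers. The letters searched for PU.1 (GAGGAAG, 15.36% of genes) stood in none of the 10 called carriers and in 3 of the 24 uncalled ones (Slc25a5, Slc25a23 and Slc25a45). The E-box (CACGTG, 8.093% of genes) stood in Slc25a13 and Slc25a1 among the called carriers, and the AP-1 site (TGANTCA, 8.973%) in Slc25a13. The letters TGACGTCA (CRE, 2.031%), AGGTCA (18.13%), CAAGGTCA (which contains the former, 1.761%) and GCATGCGC (NRF1, 3.049%) stood in none of the 10. These matches describe letters and do not show binding.

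The uncoupling group (Ucp1 to Ucp3 with the related Slc25a14, Slc25a27 and Slc25a30) had 5 tested members, with a median log2 fold change of 0.48. Of these, 2 were higher on HFD and 0 were lower by edgeR's test, by DESeq2 or at an unadjusted p under 0.05. This was 40% called, against 15.9% of all genes tested. Ucp2 (ENSMUSG00000033685, chr7:100493337-100502020, plus strand, GRCm38), a carrier abundant in immune cells, had 188, 189 and 216 CPM on ND, against 716, 517 and 1128 CPM on HFD. Every HFD library lay above every ND library, and HFD3 was the highest. The mean rose 3.98-fold, from 198 ± 16.1 to 787 ± 312 CPM (SD, n = 3), with a log2 fold change of 1.99 (SE 0.29) and an adjusted p of 0.00962 in edgeR's test. Among the called carriers Ucp2 had the lowest adjusted p. It was still called in 4 of the 6 fits without 1 library and in 12 of 12 other alternatives.

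Ucp3, known for its expression in muscle and brown fat, lies 6.9 kb before Ucp2 on the same strand and had 40.6, 54.1 and 26.9 CPM on ND, against 20.2, 37.0 and 9.22 CPM on HFD. The diets overlapped, and the log2 fold change of -0.87 (SE 0.48) did not pass edgeR's test (adjusted p = 0.244). With the replicate number as a block it was called lower, at -1.02 with an adjusted p of 0.0447. Ucp1, the heat-producing carrier of brown fat, had 0 counts in the 3 ND libraries and 3, 9 and 1 counts in HFD1 to HFD3, and was not tested. Of the 6 tested brown or beige fat markers, edgeR called Otop1 higher and Ppargc1a lower on HFD, and DESeq2 also called Cox8b lower (adjusted p = 0.0461).

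Slc25a30 (ENSMUSG00000022003, chr14:75760117-75787037, minus strand), the kidney mitochondrial carrier, had 26.3, 24.2 and 29.9 CPM on ND, against 37.2, 35.8 and 47.9 CPM on HFD. All HFD libraries were higher than all ND libraries, and the log2 fold change was 0.59 (SE 0.15, edgeR adjusted p = 0.0431). Its relative Slc25a14, a brain uncoupling protein, stood at 3.99, 3.48 and 4.75 CPM against 5.19, 6.02 and 5.41 CPM, a non-overlapping difference that was not called (adjusted p = 0.223). Slc25a27 differed by 0.48 on the log2 scale (adjusted p = 0.303).

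Another gene overlaps Ucp2. Dnajb13 shares 305 of the 6989 exon bases of Ucp2, and whether the authors' counting used strand is not given in the sources used here. Dnajb13 had 51, 43 and 110 counts on ND, against 366, 370 and 361 on HFD, a log2 fold change of 2.54 (edgeR adjusted p = 0.00652). Ucp2 had far more, with 3474, 3264 and 4328 counts on ND, against 13104, 8583 and 19582 on HFD. Reads of the shared stretch cannot be assigned to one of the pair, and their part in either gene's counts was not tested.

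**Figure D3:**
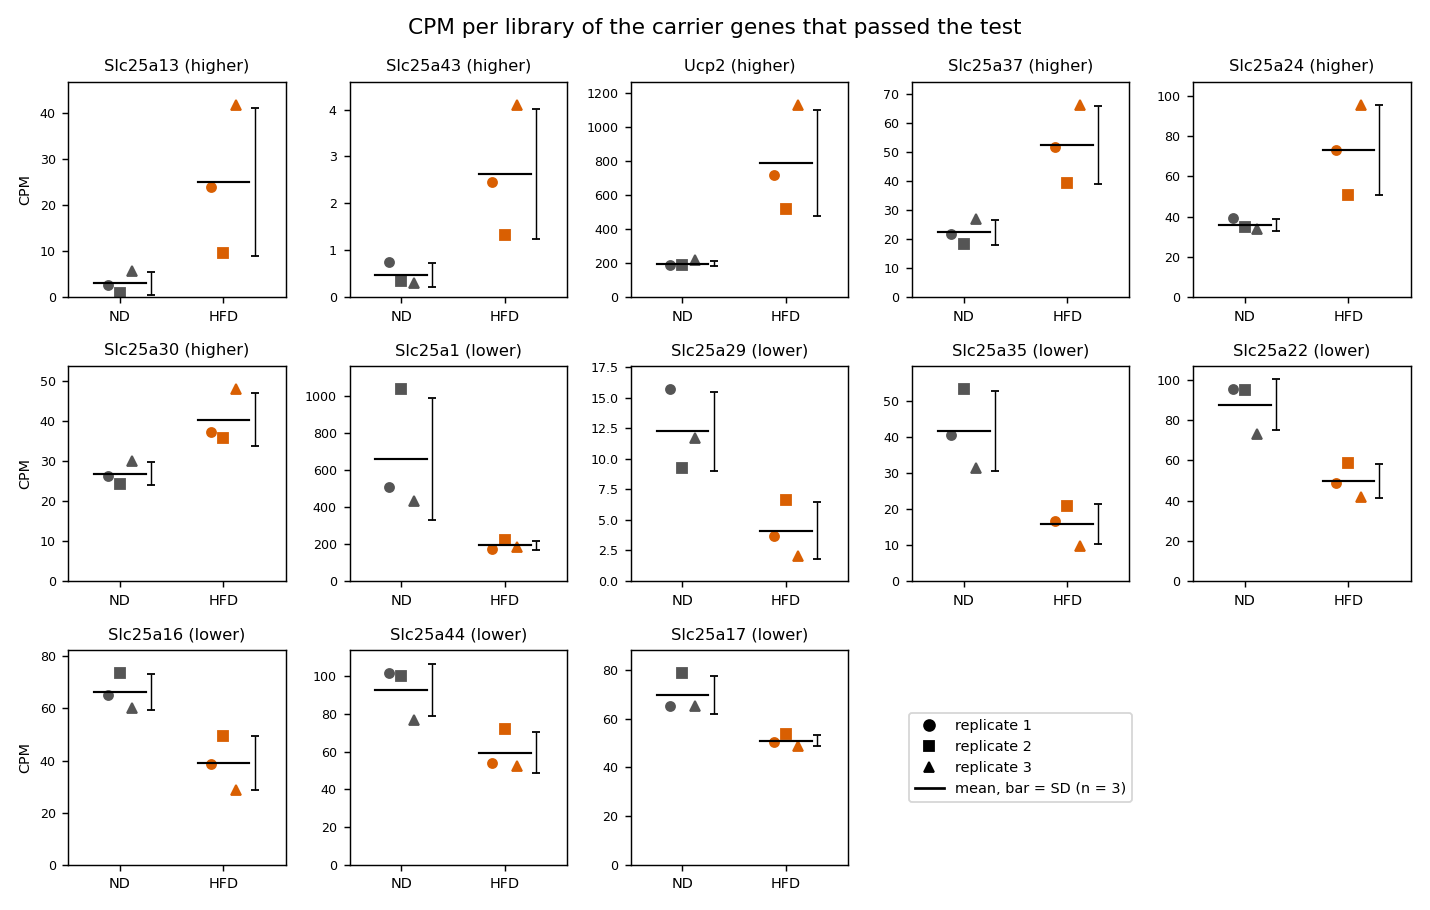
CPM of the 13 called carriers in each of the 6 libraries, with 1 panel per gene, a linear axis from 0, a symbol for each replicate number, a line for the mean of each diet and a bar of 1 SD beside it. In the 6 panels of higher genes HFD2 is the lowest and HFD3 the highest HFD library, and in 6 of the 7 panels of lower genes HFD3 is the lowest.

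Among the 5 carriers of carboxylates and acyl groups, 4 were tested, and Slc25a1 was lower while the other 3 were not called. This was 25% called, against 15.9% of all genes tested. Slc25a1 (ENSMUSG00000003528, chr16:17925223-17928219, minus strand), which exports citrate for fatty acid synthesis, had 508, 1036 and 430 CPM on ND, against 172, 220 and 185 CPM on HFD. The diets did not overlap, and ND2 stood far above the other ND libraries. The mean was 3.42-fold lower on HFD (658 ± 330 against 192 ± 24.7 CPM), with a log2 fold change of -1.77 (SE 0.34, edgeR adjusted p = 0.0188). Without ND2 it was -1.28 and without other single libraries it reached -2.03.

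Enzymes that handle citrate were measured beside it. Acly, which cleaves the exported citrate, had 504, 3127 and 389 CPM on ND, against 218, 230 and 272 CPM on HFD. Its values did not overlap and ND2 again was the highest, but the log2 fold change of -2.48 (SE 0.79) was not called by edgeR (adjusted p = 0.0723), while DESeq2 called it (adjusted p = 0.0483). Cs, the matrix citrate synthase, had 491, 691 and 410 CPM on ND against 275, 327 and 274 CPM on HFD and was lower, with a log2 fold change of -0.86 (adjusted p = 0.0399).

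Slc25a10, the dicarboxylate carrier, had 299, 471 and 248 CPM on ND, against 233, 234 and 211 CPM on HFD. The diets did not overlap and ND2 was again the highest, but the log2 fold change of -0.59 (SE 0.24) did not pass (edgeR adjusted p = 0.140). Slc25a11, the oxoglutarate carrier, differed by -0.05 on the log2 scale (adjusted p = 0.870). Slc25a20, which takes in acylcarnitines, lay at 68.2, 80.7 and 68.1 CPM on ND, against 70.0, 74.3 and 75.3 CPM on HFD (0.02, SE 0.11, adjusted p = 0.933). Its ranges overlapped, while enzymes on either side of the same step were called in opposite directions. Cpt1a, which makes acylcarnitines, rose from 81.6, 87.5 and 99.5 to 201, 175 and 253 CPM (1.23, adjusted p = 0.00835). Cpt2, which turns them back to acyl-CoA in the matrix, fell by 0.78 on the log2 scale (adjusted p = 0.0375).

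Of the 9 energy exchange carriers, which move ATP, ADP and phosphate, 6 were tested, 1 was higher, and 0 were lower by edgeR's test or by DESeq2, although Slc25a4 was lower at an unadjusted p under 0.05. The called share was 16.7%, against 15.9% of all genes tested. The most abundant members of this group were not called. Slc25a3, the phosphate carrier, had 411, 464 and 390 CPM on ND, against 369, 355 and 435 CPM on HFD, overlapping ranges with a log2 fold change of -0.12 (SE 0.16, adjusted p = 0.614). Slc25a4, an ATP/ADP carrier typical of muscle, had 339, 391.9 and 303 CPM on ND, against 238, 289 and 241 CPM on HFD. Its diets did not overlap, but the change of -0.43 (SE 0.16) on the log2 scale was not called (adjusted p = 0.111). Slc25a5, the ATP/ADP carrier of most other tissues, had 380, 436 and 339 CPM against 284, 232 and 382 CPM, with overlap (-0.36, SE 0.22, adjusted p = 0.277). Of its principal transcript, 12.007% of the 100-base runs also occur in transcripts of other genes, so its counts are less certain. The same holds for Slc25a36 (7.88%), Slc25a40 (7.37%) and the called Slc25a37 (6.94%). Its pseudogene Slc25a5-ps, which is not among the 50, had at most 8 counts.

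The called member was a calcium-dependent carrier. Slc25a24 (ENSMUSG00000040322, chr3:109123149-109168457, plus strand) exchanges ATP-Mg for phosphate and had 39.4, 34.7 and 33.9 CPM on ND, against 73.0, 50.8 and 95.1 CPM on HFD. Each HFD library exceeded each ND library, with a log2 fold change of 1.02 (SE 0.22, edgeR adjusted p = 0.0258). Its close relatives showed no call. Slc25a25 had 106, 71.1 and 57.6 CPM on ND, against 74.5, 90.6 and 42.4 CPM on HFD (-0.18, adjusted p = 0.732), and Slc25a23 had 125, 122 and 105 CPM on ND, against 62.2, 108 and 26.7 CPM on HFD (-0.84, SE 0.43, adjusted p = 0.216). Both overlapped between diets, and in both HFD3 was the lowest library. Of the untested members, Slc25a31 had 0, 5 and 2 counts on ND and 7, 1 and 0 in HFD1 to HFD3, Slc25a41 had 0, 2 and 8 on ND and 0 in every HFD library, and Slc25a54, 6.46 kb from Slc25a24, had 0 in all 6 libraries.

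The 9 amino acid carriers had 7 tested members, of which 1 was higher and 3 were lower on HFD. This was 57.1% called, against 15.9% of all genes tested. The diets did not overlap in 6 of the 7, or 85.7%, against 40.9% of all genes tested. Slc25a13 (ENSMUSG00000015112, chr6:6041218-6217173, minus strand), citrin, exchanges aspartate for glutamate in the malate-aspartate shuttle. It had 2.54, 0.870 and 5.75 CPM on ND, against 24.0, 9.52 and 41.6 CPM on HFD, from 47, 15 and 115 counts against 439, 158 and 722. The groups did not overlap although libraries of the same diet differed several-fold, and the log2 fold change of 3.02 (SE 0.73, edgeR adjusted p = 0.0343) was the highest of the 43. Slc25a12, aralar, which carries the same substrates, had 15.6, 14.7 and 22.4 CPM on ND, against 21.7, 18.1 and 35.1 CPM on HFD. Its ranges overlapped (0.51, SE 0.28, adjusted p = 0.250).

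Enzymes of the same shuttle moved in both directions. Got1, the cytosolic aspartate aminotransferase, rose from 9.39, 8.06 and 10.4 CPM to 23.5, 14.5 and 37.9 CPM (1.44, edgeR adjusted p = 0.0305). The mitochondrial Got2 was not called, with 43.7, 42.5 and 61.4 CPM against 56.1, 47.9 and 66.9 CPM (0.21, adjusted p = 0.470), and the cytosolic malate dehydrogenase Mdh1 fell from 617, 757 and 563 CPM to 371, 462 and 327 CPM (-0.74, adjusted p = 0.0464).

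Slc25a22 (ENSMUSG00000019082, chr7:141429744-141437892, minus strand), which imports glutamate, had 95.3, 94.9 and 72.8 CPM on ND, against 48.7, 58.7 and 41.9 CPM on HFD. All HFD values lay below all ND values, with a log2 fold change of -0.82 (SE 0.17, edgeR adjusted p = 0.0220). Glud1, the glutamate dehydrogenase of the matrix, was not called, with 367, 366 and 342 CPM against 340, 305 and 370 CPM (-0.08, adjusted p = 0.716).

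Slc25a44 (ENSMUSG00000050144, chr3:88410498-88425139, minus strand) takes branched-chain amino acids into mitochondria. It had 102, 99.9 and 76.7 CPM on ND, against 53.8, 72.2 and 52.5 CPM on HFD. HFD2 came close to ND3 without reaching it, and the log2 fold change was -0.64 (SE 0.17, edgeR adjusted p = 0.0477). Bcat2, the mitochondrial aminotransferase for the same amino acids, had 319, 319 and 244 CPM against 117, 148 and 87.8 CPM, a non-overlapping fall with a log2 fold change of -1.32 (SE 0.22, adjusted p = 0.0122).

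Slc25a29 (ENSMUSG00000021265, chr12:108825873-108835883, minus strand), a carrier of basic amino acids, had 15.7, 9.28 and 11.7 CPM on ND, against 3.72, 6.62 and 2.02 CPM on HFD. The ranges were separate, and the log2 fold change was -1.57 (SE 0.43, edgeR adjusted p = 0.0479). With the replicate number as a block its adjusted p was 0.0750. The ornithine carrier Slc25a15 had 19.2, 19.4 and 30.9 CPM on ND, against 14.1, 14.0 and 14.1 CPM on HFD and just missed the threshold (-0.72, SE 0.21, adjusted p = 0.0544), while DESeq2 called it (adjusted p = 0.0163). The ornithine aminotransferase Oat had 233, 217 and 215 CPM on ND against 165, 175 and 170 CPM on HFD, and likewise missed edgeR's threshold (-0.38, adjusted p = 0.0653) but was called by DESeq2 (adjusted p = 0.00717). The glycine carrier Slc25a38 was not called either (-0.23, adjusted p = 0.231).

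All 13 carriers of cofactors, nucleotides, glutathione and iron were tested. Among them 1 was higher and 2 were lower, 23.1% called against 15.9% of all genes tested. Of the 13 fold changes, 12 were negative. Slc25a37 (ENSMUSG00000034248, chr14:69241848-69285112, minus strand), mitoferrin-1, imports iron and is best known from red cell precursors. It had 21.8, 18.4 and 27.0 CPM on ND, against 51.9, 39.4 and 66.1 CPM on HFD. Every HFD library was higher, with a log2 fold change of 1.23 (SE 0.22, edgeR adjusted p = 0.0156). Its relative Slc25a28, mitoferrin-2, went the other way, from 60.7, 52.1 and 54.7 CPM to 43.2, 48.1 and 37.7 CPM, without overlap but short of the threshold (-0.38, SE 0.13, adjusted p = 0.0874). The erythroid markers summed to 762, 565 and 860 CPM on ND, against 601, 1037 and 291 CPM on HFD, overlapping ranges in which HFD3, the highest library for Slc25a37, was the lowest. The part of erythroid cells in the Slc25a37 values was not tested. The haem synthesis enzyme Alas1 was not called, with 194, 194 and 189 CPM against 194, 214 and 278 CPM (0.25, adjusted p = 0.316).

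Slc25a16 (ENSMUSG00000071253, chr10:62920633-62946498, plus strand), a carrier linked to coenzyme A, had 64.9, 73.5 and 59.98 CPM on ND, against 38.6, 49.4 and 28.7 CPM on HFD. No HFD library reached the ND range (-0.77, SE 0.20, edgeR adjusted p = 0.0445). Slc25a42, which also carries coenzyme A, had 30.9, 29.6 and 43.9 CPM against 27.3, 32.2 and 14.1 CPM and was not called (-0.51, adjusted p = 0.291). Coasy, the enzyme of the last steps of coenzyme A synthesis, was lower, with 72.8, 99.6 and 65.3 CPM against 42.6, 51.4 and 38.9 CPM (-0.84, adjusted p = 0.0277).

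Slc25a17 (ENSMUSG00000022404, chr15:81318911-81360812, minus strand) is a carrier of the peroxisomal membrane that moves coenzyme A and related cofactors. It had 65.2, 78.8 and 65.1 CPM on ND, against 50.5, 53.5 and 48.9 CPM on HFD. The HFD libraries lay close together below the ND range, and the log2 fold change was -0.45 (SE 0.12, edgeR adjusted p = 0.0446). With the replicate number as a block its adjusted p was 0.0622. The NAD kinase of mitochondria, Nadk2, was lower, with 29.7, 33.2 and 36.2 CPM against 21.9, 25.4 and 18.89 CPM (-0.58, adjusted p = 0.0395), and Slc25a51, which imports NAD, was not called (-0.01, adjusted p = 0.979).

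The pyrimidine nucleotide carriers were not called. Slc25a33 had 12.8, 10.4 and 8.997 CPM on ND, against 8.58, 8.91 and 6.28 CPM on HFD without overlap (-0.44, adjusted p = 0.202), and Slc25a36 had 62.4, 73.0 and 74.1 CPM against 69.6, 70.8 and 67.4 CPM (-0.01, adjusted p = 0.951). The same held for the glutathione carrier Slc25a39, with 164, 178 and 148 CPM against 127, 145 and 149 CPM (-0.22, adjusted p = 0.281). Slc25a40, its relative, had 12.7, 11.5 and 13.3 CPM against 11.8, 10.96 and 11.3 CPM (-0.14, adjusted p = 0.540). Neither the S-adenosylmethionine carrier Slc25a26 (-0.31, adjusted p = 0.145) nor the folate and FAD carrier Slc25a32 (-0.01, adjusted p = 0.981) passed.

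The 8 members whose substrate is open or is not stated here were all tested, and 1 was higher and 1 was lower. This was 25% called, against 15.9% of all genes tested. Slc25a43 (ENSMUSG00000037636, chrX:36743659-36777202, plus strand) lies 18.4 kb before Slc25a5 and was among the weakest carrier mRNAs, with 14, 6 and 6 counts on ND, against 45, 22 and 71 on HFD. The ranges were separate at 0.756, 0.348 and 0.2999 CPM against 2.46, 1.32 and 4.09 CPM, with a log2 fold change of 2.47 (SE 0.57, edgeR adjusted p = 0.0286). With the replicate number as a block its adjusted p was 0.0554. Slc25a35 (ENSMUSG00000018740, chr11:68968131-68974365, plus strand) had 40.6, 53.4 and 31.4 CPM on ND, against 16.8, 20.9 and 9.85 CPM on HFD, below in every library (-1.40, SE 0.30, adjusted p = 0.0255). It shares 1151 of its 3677 exon bases with Rangrf on the other strand, and Rangrf had at most 5 counts in any library. Because it is not known whether counting used strand, these counts do not show how far shared reads bear on Slc25a35.

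Slc25a48 and Slc25a45 came close to the threshold. Slc25a48 had 22, 34 and 18 counts on ND, against 7, 4 and 0 on HFD (-2.65, SE 0.79, edgeR adjusted p = 0.0613), and Slc25a45 had 17.005, 13.4 and 17.3 CPM on ND, against 29.0, 19.8 and 43.5 CPM on HFD (0.95, SE 0.28, adjusted p = 0.0610). Neither overlapped between diets, and DESeq2 called both, with adjusted p of 0.0201 and 0.0163. With the replicate number as a block Slc25a45 was called higher (0.89, adjusted p = 0.0459). Slc25a47, which starts 0.162 kb from the start of Slc25a29 on the opposite strand, was not called (-0.88 on the log2 scale, adjusted p = 0.125). The same held for Slc25a34 (-1.05, adjusted p = 0.171), Slc25a53 (-0.11, adjusted p = 0.822) and Slc25a46 (-0.06, adjusted p = 0.717).

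Some of the untested carriers had counts mainly in ND3. Slc25a21, the oxoadipate carrier, had 2, 2 and 70 counts on ND, against 0, 5 and 1 on HFD. Slc25a18, a glutamate carrier, had 1, 1 and 42 counts on ND, against 9, 14 and 8 on HFD. The summed markers of ciliated or ductal epithelium were likewise high in ND3 alone, at 362 CPM against 11.4 to 15.8 CPM in the other 5 libraries, and their part in these counts was not tested. Slc25a2, an ornithine carrier gene, had 4, 0 and 1 counts on ND and 3, 3 and 5 in HFD1 to HFD3.

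The called carriers shared an order among the HFD libraries, which is no part of the test. In 6 of 6 carriers called higher, HFD2 was the lowest, HFD1 intermediate and HFD3 the highest, an order held by 73.0% of the 1552 genes called higher and 32.3% of all genes tested. In 6 of 7 called lower, HFD3 was the lowest, HFD1 intermediate and HFD2 the highest, an order held by 57.0% of the 952 genes called lower and 28.2% of all. Slc25a1 was the exception, with HFD1 below HFD3. The macrophage markers summed to 5644, 4367 and 9587 CPM in HFD1 to HFD3, in the first of these orders, and the adipocyte markers to 35239, 48518 and 25125 CPM, in the second. Their part in the carrier values was not tested.

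**Figure D4:**
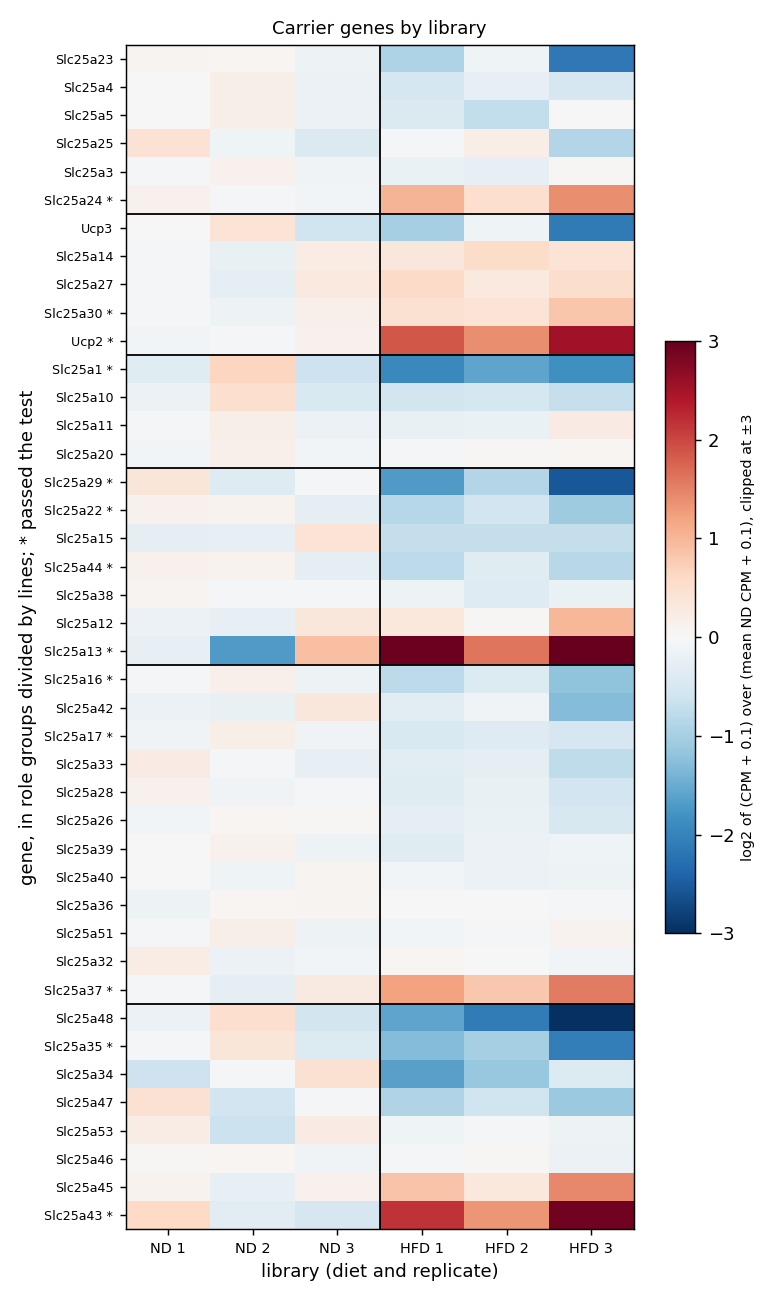
Heat map of 42 of the 43 tested carriers (1 line per gene, in role groups divided by black lines, an asterisk for called genes) in the 6 libraries, coloured by log2 of (CPM + 0.1) over (mean ND CPM + 0.1) and clipped at 3 in either direction. The higher carriers are darkest red in HFD3 and palest in HFD2, and 6 of the 7 lower ones are darkest blue in HFD3.

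The count ratio of carriers with the same or related substrates does not depend on how libraries are scaled, and 8 such pairs were compared by an exact two-sided permutation test, in which 3 libraries against 3 cannot go below p = 0.1. The ratio of Slc25a12 to Slc25a13 was 6.09, 16.4 and 3.88 on ND and 0.907, 1.90 and 0.844 on HFD, a mean log2 difference of -2.69 (permutation p = 0.1, 0.4 adjusted over the 8 pairs). Every HFD ratio lay below every ND ratio. The ratio of Slc25a28 to Slc25a37 was 2.79, 2.82 and 2.02 on ND and 0.833, 1.22 and 0.571 on HFD, a mean log2 difference of -1.59 (permutation p = 0.1, 0.4 adjusted), again without overlap. In both pairs the member with more counts on ND was not the one with more counts in HFD1 and HFD3.

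The other 6 pairs overlapped between diets. The ratio of Slc25a4 to Slc25a5 was 0.892, 0.900 and 0.893 on ND and 0.838, 1.25 and 0.631 on HFD, with a mean log2 difference of -0.04 (permutation p = 0.7). The ND libraries were nearly equal, with an SD of 0.0066 on the log2 scale, and the HFD libraries were spread on both sides of them, with an SD of 0.493. The ratio of Slc25a24 to Slc25a25 was 0.371, 0.489 and 0.589 on ND and 0.979, 0.561 and 2.24 on HFD, a log2 difference of 1.18 (permutation p = 0.2, 0.533 adjusted). The pairs Slc25a33 with Slc25a36, Slc25a39 with Slc25a40, Slc25a14 with Slc25a30 and Slc25a16 with Slc25a42 differed by -0.43, -0.08, -0.13 and -0.23 on the log2 scale (permutation p of 0.3 to 0.7).

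**Figure D5:**
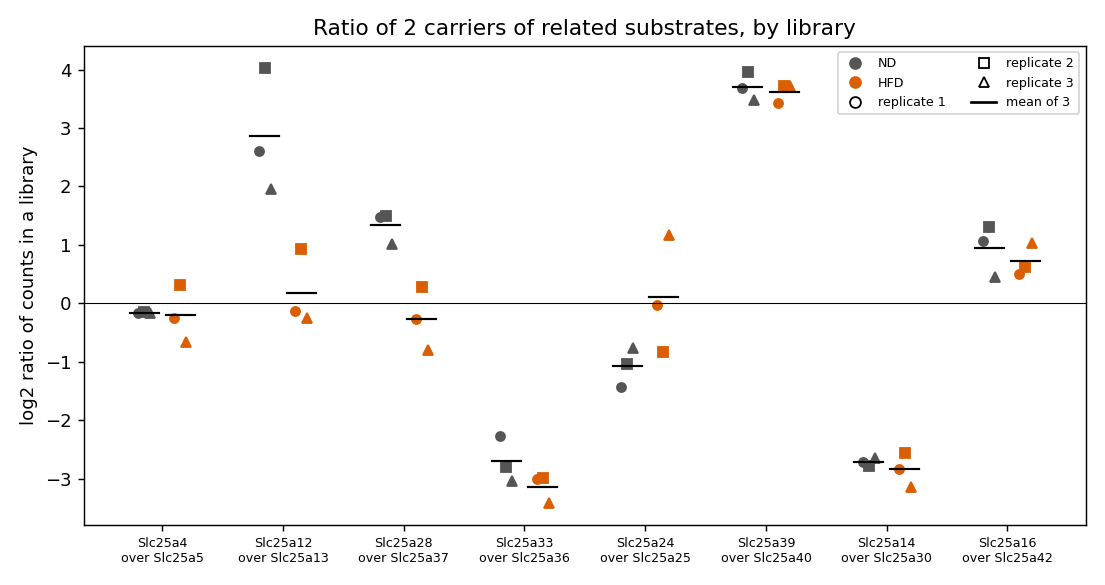
Log2 count ratio within the 8 carrier pairs, with 1 point per library, coloured by diet, and a line for each diet's mean. The ND and HFD points separate only for Slc25a12 with Slc25a13 and for Slc25a28 with Slc25a37, and the ND points of Slc25a4 with Slc25a5 nearly coincide.

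Another 38 genes of mitochondrial transport and carrier import were counted beside the carriers. All were tested, 3 were higher and 7 lower on HFD, 26.3% called against 15.9% of all genes tested, and the median log2 fold change was -0.09. None of them was called higher without ND1, ND2, ND3 or HFD1, and the number called lower was 1 without ND1, ND2 or HFD1 and 3 without ND3 or HFD3. The calls over all genes were also fewer in each of these fits, as given above. Of the import machinery of the carriers (TOM subunits, small TIM chaperones and the TIM22 complex with Agk), 1 of 13 genes was called. Timm29, a subunit of the TIM22 complex, was lower (69.4, 60.7 and 60.5 CPM against 41.1, 42.9 and 45.3 CPM, a log2 fold change of -0.56, edgeR adjusted p = 0.0189), while the channel subunit Timm22 was at 31.6, 35.0 and 25.7 CPM against 26.2, 28.1 and 40.1 CPM (0.03, adjusted p = 0.925).

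The sideroflexins, a separate family of inner membrane transporters, had calls in both directions. Sfxn1, which takes serine into mitochondria, had 257, 285 and 243 CPM on ND, against 72.5, 87.4 and 57.2 CPM on HFD. All HFD libraries lay far below the ND range, and the log2 fold change was -1.85 (SE 0.18, edgeR adjusted p = 0.00395). Sfxn2 was lower, with 24.1, 23.4 and 22.6 CPM against 15.4, 15.8 and 16.4 CPM (-0.56, adjusted p = 0.0216). Sfxn3 was higher, with 32.9, 29.8 and 29.3 CPM against 53.3, 47.8 and 76.1 CPM (0.94, adjusted p = 0.0190).

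The mitochondrial pyruvate carrier, which is not an Slc25 protein, was lower in both subunits. Mpc1 had 36.9, 66.5 and 36.4 CPM on ND, against 22.6, 25.1 and 15.95 CPM on HFD (-1.14, edgeR adjusted p = 0.0374), and Mpc2 had 211, 353 and 219 CPM against 121, 156 and 113 CPM (-1.005, adjusted p = 0.0335). As for Slc25a1, ND2 was the highest library of both. Mtch2, a carrier-like protein of the outer membrane, was lower (196, 260 and 174 CPM against 127, 147 and 126 CPM, -0.66, adjusted p = 0.0465), and its relative Mtch1 was not called (230, 246 and 211 CPM against 236, 246 and 240 CPM, 0.07, adjusted p = 0.721).

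Of the remaining called genes, the calcium uniporter subunit Mcub was higher, with 16.1, 13.1 and 13.2 CPM against 31.2, 24.9 and 53.5 CPM (1.37, edgeR adjusted p = 0.0229). The sodium/calcium exchanger Slc8b1 was higher, with 47.9, 59.5 and 46.6 CPM against 76.7, 74.3 and 105 CPM (0.73, adjusted p = 0.0319). The transporter Abcb10 was lower, with 34.1, 40.9 and 27.1 CPM against 19.6, 22.7 and 17.2 CPM (-0.78, adjusted p = 0.0313). None of these overlapped between diets. Nnt, which C57BL/6J mice carry with a deletion, had 11, 2 and 11 counts on ND, against 4, 12 and 4 on HFD.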

How the data were processed

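RNA-Seq of epididymal fat gave 6 libraries, 3 per diet, grouped by their labels. The authors deposited raw counts per gene without normalization, and FPKM values that were used for levels and in alternatives. The paper's methods name TopHat and Cufflinks with GRCm38, whereas the submitters' processing notes name CASAVA 1.8, fastp, HISAT2 2.0.5, featureCounts 1.5.0-p3, DESeq2 1.20.0 and the builds GRCh38 and hg38. The identifiers are those of mouse, and 54495 of 54532 were found in GENCODE M21, from which symbols and coordinates came. Which pipeline made the counts is not settled. A neighbour that shares exon bases can take or give reads.

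The filterByExpr function of edgeR dropped weakly counted genes. Counts were tested in R 4.3.3 with edgeR 4.0.16 (TMM, glmQLFit and glmQLFTest, robust=TRUE, diet as the only factor), and p-values were adjusted by Benjamini-Hochberg over all 15751 genes. Standard errors were derived from the F statistic. The floor of 3 counts covers counting error only, whereas SE and SD include the spread between libraries. Count ratios had 0.5 added to each count. Alternatives used DESeq2 1.42.0, limma 3.58.1 (voom, and log2(FPKM + 1) of genes with at least 0.5 FPKM in at least 3 libraries), other scalings and filters, a replicate block and each library left out. The methods were tested on simulated data. CPM per kilobase of the principal transcript was added after seeing the data.

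Values were given for every called carrier, the 5 most abundant, the pairs, the Ucp genes, untested carriers above 3 counts, called genes of the transport list with Mpc1, Mpc2, Mtch1 and Mtch2, and enzymes acting on a called carrier's substrate. Other carriers and enzymes are given by fold change, except a carrier and an enzyme whose values are not reported here. The members and lists were chosen with earlier results of these data known.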

Additional observations from a re-analysis of the deposited data

How the results depend on the processing

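Over the 43 tested carriers and up to 18 alternatives, 660 of 770 fold changes kept direction and side of the threshold, 77 lost the call, 12 gained one and 21 changed sign. The 13 called carriers had no change of sign in 234 values, and none of them passed in all 6 fits without 1 library. The sign changes were in 7 uncalled carriers, whose ranges over the fits without 1 library were -0.2335 to 0.0527 for Slc25a11, -0.058 to 0.1045 for Slc25a20, -0.4166 to 0.1033 for Slc25a25, -0.0829 to 0.1166 for Slc25a32, -0.0888 to 0.0234 for Slc25a36, -0.1137 to 0.0956 for Slc25a51 and -0.3461 to 0.0258 for Slc25a53. Slc25a20 was also at -0.0035 with DESeq2, -0.006 with its size factors and -0.0183 with protein-coding genes only, and Slc25a32 at 0.0028 with limma-voom and 0.0026 with a replicate block. Leaving out 1 library gave 0 to 7 carriers higher and 0 to 10 lower, and among the 38 transport genes 0 to 4 higher and 1 to 9 lower. All genes called then numbered 474 to 3940, against 2504. With log2(FPKM + 1) and no filter, 1 carrier was higher and 0 lower, and 0 and 3 transport genes. Without a filter on counts 4 carriers were lower. When a log2 change of 1 or more was also required, 3 carriers were lower, and 1 and 3 transport genes were higher and lower. The cause was not tested. DESeq2 called 3696 genes of all.

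Same-numbered libraries did not deviate together over the tested genes (correlations of -0.086, -0.056 and -0.0053). The labels do not say whether the numbers are a pairing, and with 3 libraries per diet these values cannot exclude one. With a replicate block 6 carriers were higher and 6 lower, 10 of the 13 stayed called, and 1886 genes of all were called.

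The 7 untested carriers had few counts, or counts mainly in ND3 (Slc25a18 and Slc25a21), and were not compared between diets. The number of libraries, 3 per diet, limits the rest.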
